A study of Mus musculus with 40 samples.

Results

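Gene expression was compared between whole livers of mice that lack Nampt in hepatocytes (HNKO) and of WT littermates at day 12 of feeding with a purified control diet (PD). The comparison comprised the 6 HNKO and the 5 WT libraries whose titles name these genotypes and 12 days, 11 of the 40 libraries of the series, in which total RNA was sequenced after depletion of rRNA. HNKO mice carried Nampt fl/fl and Alb-Cre+/−, so that the albumin promoter drove Cre in hepatocytes, whereas the WT littermates carried the floxed alleles without Cre. All mice were females on the C57BL/6JBomTac background, all received PD, and whole liver was sampled. The labels give 12 days as the age of the mice, and the study's methods describe adult mice that were fed PD for that long, which is the reading used here. Cells of the liver other than hepatocytes keep Nampt in this model, and in whole liver fewer cells of a type and less RNA per cell cannot be told apart. The other libraries were taken at days 3, 6, and 21 and serve only to set the spread of the counts and to compare the days at the end.

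NAMPT is the rate-limiting enzyme that recycles nicotinamide to nicotinamide mononucleotide, the direct precursor of NAD. NAD carries electrons from fuel oxidation to the mitochondrial respiratory chain and is consumed by sirtuins, PARPs, and glycohydrolases. Hepatocytes can also make NAD from tryptophan, nicotinic acid, or nicotinamide riboside, and they are the source of most plasma proteins, of bile acids, and of the enzymes that oxidize fatty acids and drugs.

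The 11 libraries held 18400982 to 36041290 counts, with a median of 30952568 in WT and 29443342 in HNKO. Of 55487 genes in the table, 20297 had adequate counts and were tested, and these held 99.937% of the counts of day 12. No pair of libraries within a group agreed within counting error, since the closest pair had a chi-square per gene of 13.96. Levels are given as CPM, counts scaled to a common library size by TMM, with the WT values in the order of libraries 14, 15, 16, 33, and 34 and the HNKO values as the lowest, median, and highest of libraries 11, 12, 13, 32, 35, and 36. Fold changes are fitted log2 ratios of HNKO to WT, given with their SE. A gene was called when its adjusted p-value in edgeR's quasi-likelihood test was under 0.05. Where groups are said not to overlap, the genes were mostly chosen by small p-values in these same libraries. Lack of overlap is thus no further support for them, and its share over all tested genes is not given here.

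The tissue label was checked with Alb, which encodes albumin. It was at 85040, 105300, 117900, 88960, and 90680 CPM in WT and at 69240, 75510, and 91690 CPM in HNKO, so that all 11 libraries were rich in a defining hepatocyte transcript. Alb was not called (log2 fold change -0.33 ± 0.17, adjusted p = 0.214, edgeR). In an exact permutation test (two-sided, n = 5 and 6) on log2 CPM the difference of -0.33 had p = 0.0152 and 0.0303 after adjustment over the 6 single values tested in this way.

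Several libraries stood apart. The summed level of the skeletal muscle markers Ckm, Acta1, and Mylpf was 267 CPM in HNKO library 11, 50.4 in library 13, and 3.98 in library 32, against 0.518 to 1.44 in WT and 0.281 to 1.25 in the other 3 HNKO libraries. HNKO library 35 had 684 CPM over 5 erythroid markers, where the other libraries had 57.5 to 189, and it held 12.2 CPM of the pancreatic transcript Ctrb1, which had 0 counts in all WT libraries. The 4 markers of exocrine pancreas summed to 10.4 to 25.9 CPM in WT and to 6.24 to 21.8 in HNKO, and 2 adipocyte markers summed to 0 to 12.5 CPM over all libraries. WT library 16 had a clock score, the mean log2 CPM of dusk side minus that of dawn side clock genes, of 3.45, where the other WT libraries had -1.61 to -0.67 and the HNKO libraries -0.17 to 2.78 (median 1.61). The mean score was 1.49 higher in HNKO than in WT, which did not pass an exact permutation test (p = 0.162, 0.243 adjusted over the 6 values). The fits without them hold fewer libraries, and their counts of calls are given beside many of the gene lists. The cause of the differences of these libraries, and its part in the other results, was not tested.

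Nampt (ENSMUSG00000020572, chr12:32819545-32853349 on the plus strand of GRCm38), the floxed gene, was at 68.9, 69.7, 151, 59.4, and 59.8 CPM in WT and at 30.3, 50.8, and 54.5 CPM in HNKO. Every HNKO library was below every WT library, and WT library 16 stood well above the other WT libraries. The log2 fold change was -0.82 ± 0.22 (adjusted p = 0.0208, edgeR), and the difference of -0.75 in mean log2 CPM had p = 0.00217 in the exact permutation test (0.013 adjusted over the 6 values). Without WT library 16 the log2 fold change was -0.47 (adjusted p = 0.142), without HNKO library 35 it was -0.70 (adjusted p = 0.0562), and without HNKO libraries 11 and 13 it was -0.88 (adjusted p = 0.0501). The numbers in the sample titles go through the days in order from 1 to 21 and again from 22 to 41. The labels name no batch, and the first and second label series are names given here to these runs of numbers. The fold change was -0.88 in the first (3 WT, 3 HNKO) and -0.52 in the second (2 WT, 3 HNKO), and neither passed the test alone (adjusted p = 0.142 and 0.583).

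Among the other genes of NAD metabolism, Nadk2 and Parp9 passed the test. Among 22 tested genes of NAD synthesis, Nampt and Nadk2 were called lower, which is 9.09% of the list against 7.82% of all tested genes called in either direction, and the median log2 fold change was -0.17. Nadk2, the mitochondrial NAD kinase, was at 154, 191, 193, 191, and 182 CPM in WT and at 124, 143, and 178 CPM in HNKO (log2 fold change -0.32 ± 0.10, adjusted p = 0.0402), so that the groups overlapped. Of 23 tested NAD consumers, only Parp9, an inactive partner of the PARP family, was called (-0.30 ± 0.09, adjusted p = 0.0285), which is 4.35% of them, and the median was -0.05. It was at 96.2, 90, 76.1, 85.8, and 87.4 CPM in WT and at 65.7, 69.6, and 80.2 CPM in HNKO, and the groups overlapped by 1 HNKO library. Neither of the genes of NAD synthesis was called by edgeR without WT library 16, without HNKO library 35, or without libraries 11 and 13, with 6, 6, and 3 genes of the list lower at an unadjusted p-value under 0.05. Without library 35 Nadk2 was at -0.31 (adjusted p = 0.0653) and Parp9 at -0.26 (adjusted p = 0.0811). Over all libraries 7 genes of NAD synthesis were lower at an unadjusted p-value under 0.05.

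Over all tested genes, 1588 were called between HNKO and WT at day 12, which is 7.82% of the 20297 tested. Of these, 925 were higher in HNKO (4.56% of tested genes) and 663 lower (3.27%). The higher genes had the larger fold changes, with a median log2 fold change of 1.09 and 508 genes above 1, whereas the lower genes had a median of -0.42 and 92 genes below -1. The median over all tested genes was 0.00, and the median SE was 0.195. Among the called genes 152 carry only a provisional name or an identifier. The number called fell to 603 without HNKO libraries 11 and 13, of which 566 were among the 1588, and to 97 without libraries 11, 13, and 35. In the first of these fits 1572 of 1573 called genes that could be tested kept their sign, and in the second 1569 of 1570. Of 121 called genes examined singly, 43 lost the call without libraries 11 and 13 and 87 without libraries 11, 13, and 35, while all 120 that could be tested kept their sign in both fits. Leaving out WT library 16 cost 21 of the 121 calls, which were Nampt, Vcan, Thbs1, Des, Vim, S100a9, Vwf, Dlst, Ndufa5, mt-Nd6, Gsta3, Ces1d, Nadk2, Igfbp2, Phlda3, Mcm5, Cry1, Mylpf, Sod1, Txn2, and Hsp90b1. Leaving out HNKO library 35 alone cost 17, which were Nampt, Krt19, Cldn7, Thbs1, Vim, Itgb6, Vwf, mt-Nd6, Cyp3a44, Nadk2, Parp9, Pmaip1, Tff3, Igdcc4, Sod1, Txn2, and Hsp90b1. Each of the other libraries left out alone cost 4 to 25 of the calls, with 25 for WT library 15, 21 for WT library 33, and 20 for HNKO library 13. Among 40 gene lists and families with 2 or more calls in a direction, the count moved by over 1.5 times in 34 without libraries 11 and 13, in all 40 without libraries 11, 13, and 35, in 12 without WT library 16, and in 9 without HNKO library 35.

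**Figure D1:**
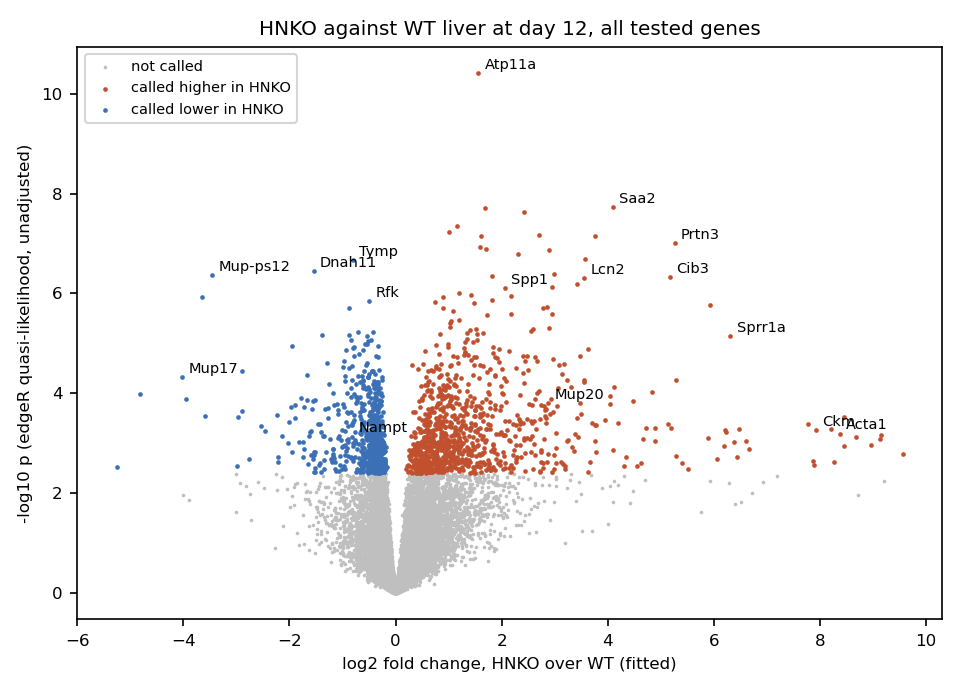
Each point is 1 of the 20297 tested genes, with the fitted log2 fold change of HNKO over WT on the x axis and −log10 of the unadjusted edgeR p-value on the y axis. Red points are the 925 genes called higher in HNKO and blue points the 663 called lower, and the higher genes reach further from 0 than the lower ones.

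The gene with the smallest p-value was Atp11a, which encodes a phospholipid flippase of the plasma membrane. It was at 18.3, 18.7, 17.9, 15, and 16.1 CPM in WT and at 34.3, 55.1, and 64.1 CPM in HNKO, a log2 fold change of 1.56 ± 0.16 (adjusted p = 7.8e-07, edgeR). The groups did not overlap, nor did they for Cyb561, an electron-transferring cytochrome of secretory vesicles. Cyb561 was at 2.24, 2.48, 3.06, 4.51, and 3.47 CPM in WT and at 7.5, 9.61, and 13.1 CPM in HNKO (1.68 ± 0.23, adjusted p = 0.000117). Tifa, an adaptor of NF-kB signaling, was at 14, 11.9, 22.1, 13.8, and 12.9 CPM in WT and at 24.8, 30.9, and 37.1 CPM in HNKO (1.01 ± 0.15). WT library 16 was the highest of the WT libraries for Tifa and still below every HNKO library. Clca3a1 (1.16 ± 0.17) was also among the 12 higher genes with the smallest p-values, and 23.6% of its stretches of 51 bases, the read length, occur in other genes.

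Among called genes whose groups did not overlap, those with the largest increases were near the limit of detection in WT. Prtn3, known as a neutrophil protease, had 6 counts over the 5 WT libraries and was at 0.32, 1.52, and 4.21 CPM in HNKO (log2 fold change 5.26 ± 0.78, adjusted p = 0.0002, edgeR). Sprr1a, a small proline-rich protein known from stressed epithelia, had 2 counts in WT and 249 in HNKO, a ratio per total count of 112 with a 95% counting interval from 30.7 to 930. Slc7a11, the cystine importer, had 3 counts in WT and 130 in HNKO, a ratio of 38.97 with an interval from 13.04 to 191.4. These intervals cover counting error only, and for such genes the fitted fold change depends on the few WT counts. Cib3, a calcium-binding protein, was better covered. It was at 0.257, 0.563, 0.813, 1.43, and 0.243 CPM in WT and at 6.89, 18.3, and 53.9 CPM in HNKO (5.17 ± 0.84, adjusted p = 0.00045), so that the lowest HNKO library was above the highest WT library. Lrtm2 (5.30 ± 1.15) and the adaptor Shc2 (4.11 ± 0.92) completed these 8 genes together with 2 that carry only a provisional name.

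**Figure D2:**
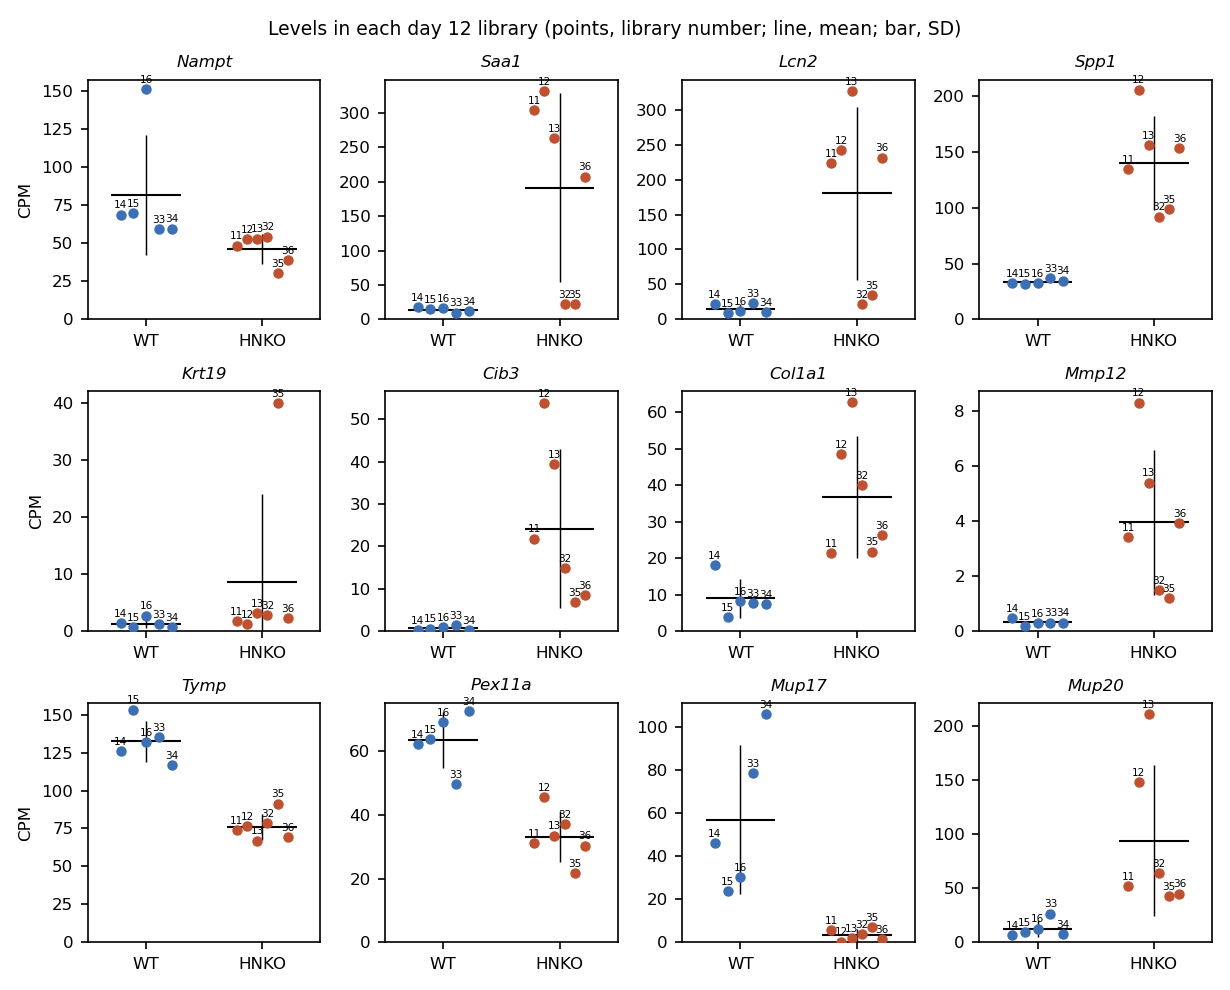
Levels in CPM of 12 genes in each of the 5 WT (blue) and 6 HNKO (red) libraries, with the library number beside each point, the mean as a line, and the SD as a bar. Saa1 and Lcn2 are near the WT level in HNKO libraries 32 and 35 and high in the other 4, Krt19 is high in library 35 alone at 40.1 CPM, and Nampt in WT library 16 is at 151 CPM.

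Acute-phase genes, whose products hepatocytes secrete in response to interleukin-6 and related cytokines, were among those with large changes. Of 42 tested members, 12 were called higher and 1 lower, which is 31% against 7.82% of all tested genes, and the median log2 fold change was 0.47. Saa1 and Saa2 encode the serum amyloid A proteins of plasma. Saa1 was at 17.6, 14.6, 16.4, 9.82, and 12.5 CPM in WT and at 21.8, 235, and 332 CPM in HNKO (3.76 ± 0.55, adjusted p = 0.000158, edgeR). Saa2 was at 10.4, 7.2, 7.61, 4.82, and 9.12 CPM in WT and at 16.5, 140, and 262 CPM in HNKO (4.10 ± 0.56, adjusted p = 0.000117). HNKO libraries 11, 12, 13, and 36 were high for both genes, while libraries 32 and 35 were only just above the WT libraries. The mean of the 4 serum amyloid A genes was 3.37, 3.13, 2.47, and 2.49 log2 units above the WT mean in libraries 11, 12, 13, and 36 and 0.46 and 0.40 above it in libraries 32 and 35. Saa3, made mainly outside hepatocytes, was also called higher (2.08 ± 0.45, adjusted p = 0.00629), and Saa4, a constitutively made member, was not (0.12 ± 0.31, adjusted p = 0.852).

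The starts of Saa1 and Saa2 face away from each other on chromosome 7, and their promoters are shown because the genes move together and resemble each other in sequence. The 250 bases before each RefSeq start in GRCm38.p6 differ by an edit distance of 13, and capitals mark the longest stretch of 65 bases that both share exactly. Saa1 lies at chr7:46742981-46743230 on the minus strand and Saa2 at chr7:46751583-46751832 on the plus strand.
Saa1: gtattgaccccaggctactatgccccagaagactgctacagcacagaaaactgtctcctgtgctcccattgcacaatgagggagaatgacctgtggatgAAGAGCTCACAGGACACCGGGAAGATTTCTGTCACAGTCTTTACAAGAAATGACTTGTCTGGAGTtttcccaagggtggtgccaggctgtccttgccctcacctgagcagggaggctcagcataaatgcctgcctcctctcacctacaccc
Saa2: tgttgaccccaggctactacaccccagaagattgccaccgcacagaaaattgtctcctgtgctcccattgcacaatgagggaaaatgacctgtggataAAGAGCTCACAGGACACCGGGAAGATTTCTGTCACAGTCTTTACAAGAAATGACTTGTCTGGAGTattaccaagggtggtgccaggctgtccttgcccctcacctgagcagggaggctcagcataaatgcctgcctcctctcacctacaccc
The sequence TTCNNNGAA of STAT factors, found in 7.02% of 32851 promoters of this length, GGNNTTTCC of NF-kB (4.93%), and TGANTCA of AP-1 (6.75%), searched on both strands, had 0 matches in either promoter, which says only that these letters are not in these windows. The transcripts are alike too, as 30.9% of the stretches of 51 bases of Saa1 and 29.5% of those of Saa2 occur in other genes, so that the split of counts between them is uncertain.

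Other acute-phase genes were called as well. Lcn2, the iron-siderophore carrier lipocalin-2, was at 22, 9.08, 11.4, 23.7, and 10.2 CPM in WT and at 21.6, 228, and 326 CPM in HNKO (3.56 ± 0.58, adjusted p = 0.000461, edgeR). In 5 of 6 HNKO libraries it was above all WT libraries, and library 32 lay within the WT range. Orm2, an orosomucoid of plasma, was at 15.8, 18.1, 15, 8.23, and 10.3 CPM in WT and at 10.9, 80.3, and 164 CPM in HNKO (2.50 ± 0.53, adjusted p = 0.00497), with 4 of 6 HNKO libraries above WT. Hpx, the plasma heme carrier, was at 2537, 2827, 2563, 2328, and 2821 CPM in WT and at 2810, 4679, and 6245 CPM in HNKO (0.76 ± 0.16, adjusted p = 0.00476). Lrg1, a leucine-rich glycoprotein, was higher in every HNKO library than in any WT library, at 69.7, 56, 59.1, 70.8, and 67.7 CPM in WT and at 91.8, 227, and 272 CPM in HNKO (1.61 ± 0.24, adjusted p = 0.000158). Socs3, the feedback inhibitor of interleukin-6 signaling, was called higher (2.13 ± 0.42, adjusted p = 0.00341). Without HNKO libraries 11 and 13, 6 acute-phase genes were called higher and none of the 42 lower.

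The member called lower was Hamp2, a duplicate of the hepcidin gene. It was at 373, 421, 290, 334, and 397 CPM in WT and at 74.3, 110, and 187 CPM in HNKO (-1.61 ± 0.43, adjusted p = 0.0186, edgeR), and the groups did not overlap. Hamp itself, the iron hormone hepcidin, was not called (-0.03 ± 0.55, adjusted p = 0.981) and was at 6.31 CPM in HNKO library 35 against 490 to 1190 CPM in the other 10 libraries. Of Hamp2, 10.7% of the stretches of 51 bases occur in Hamp.

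Of the complement genes, C6, C8a, and C9, which encode parts of the membrane attack complex, were called higher. C6 was at 15.2, 24.4, 15.7, 13.3, and 18.7 CPM in WT and at 36.7, 51.5, and 75.2 CPM in HNKO (1.6 ± 0.24, adjusted p = 0.000206, edgeR). C8a was at 118, 126, 168, 206, and 80.9 CPM in WT and at 206, 401, and 701 CPM in HNKO (1.70 ± 0.26, adjusted p = 0.000206), and C9 was higher by 1.18 ± 0.24 (adjusted p = 0.00433). For all 3 genes the lowest HNKO library was above the highest WT library, narrowly so for C8a. The other subunits of C8 on the list, C8b (0.71 ± 0.29, adjusted p = 0.125) and C8g (-0.18 ± 0.17, adjusted p = 0.529), were not called. Over the list of 38 complement and coagulation genes 6 were called higher, which is 15.8% against 4.56% of all tested genes, and the list's median was -0.06. By role, 5 of 21 were of complement (23.8%) and 1 of 17 of coagulation (5.88%).

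Markers of bile ducts and liver progenitor cells were the list with the largest share of called genes. Of 26 tested markers, 19 were called higher, which is 73.1% against 4.56% of all tested genes, and the median log2 fold change was 1.54. The list was written with earlier results of these data known, so its share is no independent evidence. It includes Epcam, Ncam1, Spp1, Sox9, and Krt7, which the study had reported as higher in these HNKO livers. Spp1, the matricellular protein osteopontin, was at 32.2, 32.2, 32.4, 37, and 34.8 CPM in WT and at 92.2, 144, and 206 CPM in HNKO (2.06 ± 0.34, adjusted p = 0.000626, edgeR). Cdh6, an adhesion protein of epithelia, was at 0.6249, 0.45, 0.335, 0.823, and 0.517 CPM in WT and at 1.9, 2.47, and 4.79 CPM in HNKO (2.43 ± 0.34, adjusted p = 0.000117). Cftr, the chloride channel of bile duct epithelium, was at 0.294, 0.15, 0, 0.457, and 0.304 CPM in WT and at 0.883, 1.76, and 2.37 CPM in HNKO (2.71 ± 0.40, adjusted p = 0.000158). None of these 3 genes overlapped between the groups. Pkhd1, the fibrocystin of bile duct cilia, changed less, from 43.7 to 53.2 CPM over WT to 62.1, 69.3, and 79.6 CPM in HNKO (0.55 ± 0.11, adjusted p = 0.00337), also without overlap.

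HNKO library 35 carried a large part of the change of some ductal markers. Krt19, the keratin of bile duct cells, was at 1.32, 0.713, 2.68, 1.16, and 0.638 CPM in WT and at 1.14, 2.52, and 40.1 CPM in HNKO (2.74 ± 0.65, adjusted p = 0.01, edgeR). The highest value was in library 35, only 3 of 6 HNKO libraries were above all WT libraries, and without library 35 the log2 fold change was 0.82 (adjusted p = 0.185). Cd24a, a surface protein of progenitor and immune cells, was at 5.46, 7.43, and 64.8 CPM in HNKO against 1.7 to 4.55 CPM in WT (2.59 ± 0.48, adjusted p = 0.0021), with 1.43 (adjusted p = 0.00455) without library 35. Epcam, the epithelial adhesion molecule, was called as well (1.54 ± 0.29, adjusted p = 0.00228), and 4 of 6 HNKO libraries were above WT. The count of ductal markers called higher was 13 without library 35, 15 without libraries 11 and 13, and 3 without all 3 of these libraries, where the median was 0.72. The list's mean was above that of every WT library in each of the 6 HNKO libraries, by 0.73 to 2.13 log2 units over the WT mean, against -0.18 to 0.21 among WT.

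Epithelial keratins, claudins, and integrins included further called genes. Of 8 tested keratins 4 were called higher, which is 50% against 4.56% of all tested genes. Krt8, the type II keratin of hepatocytes and ducts, was at 116, 86.2, 73.8, 87.7, and 92 CPM in WT and at 114, 187, and 216 CPM in HNKO (0.95 ± 0.21, adjusted p = 0.00704, edgeR), and Krt18, its type I partner, was higher by 0.68 ± 0.18 (adjusted p = 0.0186). For both, 5 of 6 HNKO libraries were above all WT libraries. Of 13 tested claudins, the strands of tight junctions, 3 (23.1%) were called higher, namely Cldn4 (2.82 ± 0.68), Cldn6 (2.01 ± 0.42), and Cldn7 (1.73 ± 0.45), while the family's median was 0.00. Cldn7 was not called without HNKO library 35 (1.10, adjusted p = 0.0836). Integrin subunits, receptors for matrix, gave 6 calls of 27 (22.2%), all higher, and included Itgb6 (2.36 ± 0.60, adjusted p = 0.0154), the epithelial subunit of a receptor that activates TGF-beta. Without library 35 Itgb6 was at 1.78 (adjusted p = 0.054). Without libraries 11 and 13, 2 of the keratins and 2 of the integrins were called, and without libraries 11, 13, and 35 none was by edgeR, with 3 keratins and 6 integrins higher at an unadjusted p-value under 0.05.

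**Figure D3:**
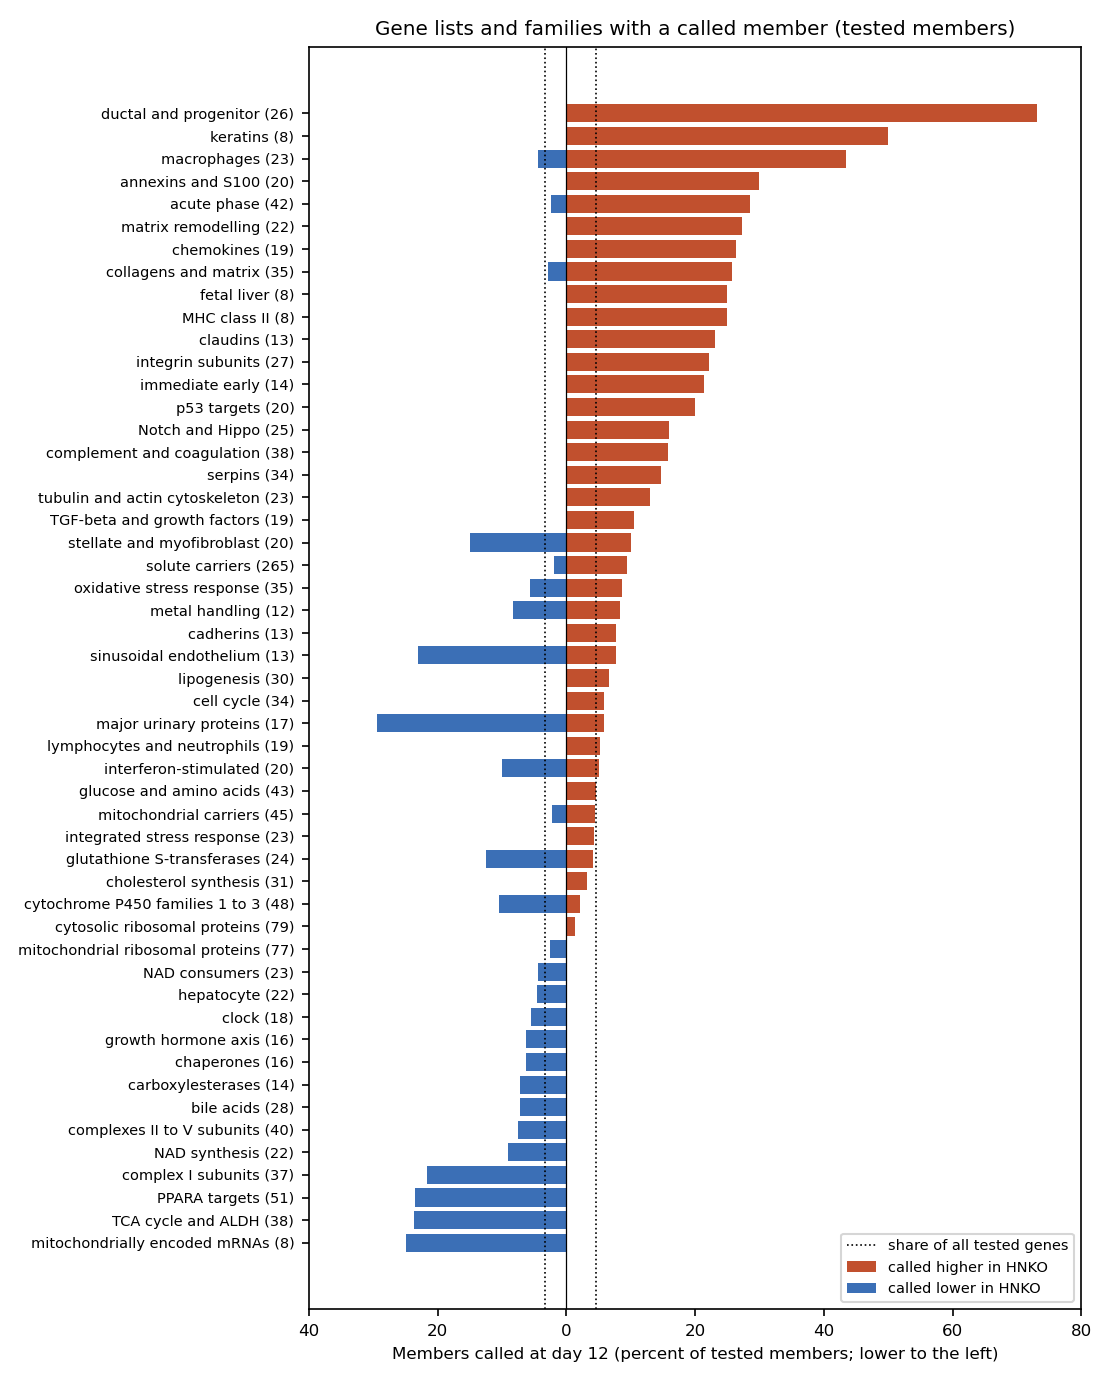
Share of the tested members of each gene list or family that was called higher (red, to the right) or lower (blue, to the left) in HNKO, in percent, with the number of tested members in brackets and dotted lines at the shares over all tested genes (4.56% higher and 3.27% lower). Ductal and progenitor markers are at 73.1%, and the PPARA targets, the TCA cycle and ALDH list, and complex I subunits have calls on the lower side only.

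Genes of the extracellular matrix were higher in part. Of 35 tested collagens and matrix proteins 9 were called higher and 1 lower (median 0.50), which is 28.6% against 7.82% of all tested genes. Of 22 genes of matrix remodeling 6 were called higher (median 0.78), which is 27.3% against 4.56% of all tested genes. Col1a1, the main fibrillar collagen chain of scar tissue, was at 18.1, 3.79, 8.18, 7.65, and 7.36 CPM in WT and at 21.3, 33.2, and 62.8 CPM in HNKO (2.03 ± 0.54, adjusted p = 0.02, edgeR). Col5a2, a chain that nucleates collagen fibrils, was at 10.8, 7.77, 10.9, 6.62, and 9.58 CPM in WT and at 15.2, 22.6, and 37 CPM in HNKO (1.37 ± 0.30, adjusted p = 0.00665). The groups did not overlap for either, although WT library 14 came close to the lowest HNKO library for Col1a1. The proteoglycan Vcan (1.84 ± 0.52) and the matricellular Thbs1 (1.25 ± 0.37) were higher as well. Thbs1 was not called without HNKO library 35 (1.19, adjusted p = 0.0524), and neither gene was without WT library 16. Without libraries 11 and 13, 2 of the 35 were called higher, 3 without WT library 16, and none without libraries 11, 13, and 35 (edgeR, median 0.44), while 12 of the 35 were called higher by DESeq2 over all libraries.

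Among the remodeling genes, Mmp12, the elastase of macrophages, was at 0.478, 0.188, 0.287, 0.305, and 0.304 CPM in WT and at 1.19, 3.66, and 8.31 CPM in HNKO (3.62 ± 0.71, adjusted p = 0.00317, edgeR). Timp1, an inhibitor of matrix metalloproteinases, was at 0.0735, 0.075, 0.287, 0.152, and 0.0912 CPM in WT and at 0.352, 1.4, and 2.63 CPM in HNKO (3.47 ± 0.70, adjusted p = 0.00369). Both were higher in all 6 HNKO libraries than in any WT library. Of the 22 remodeling genes, 3 were called higher without libraries 11 and 13 and 2 without libraries 11, 13, and 35.

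Stellate cells are pericytes that turn into collagen-producing myofibroblasts. Of 9 tested markers of quiescent stellate cells 3 were called lower and 1 higher (median 0.01), which is 44.4% against 7.82% of all tested genes. Among the 9, 5 had a positive and 4 a negative log2 fold change. Of 11 markers of activated cells 1 was called higher, which is 9.09% against 4.56% of all tested genes. All 11 had a positive log2 fold change with a median of 0.68, which was 0.52 without libraries 11 and 13 and 0.23 without libraries 11, 13, and 35. Ecm1, a secreted matrix protein also made by hepatocytes, was at 105, 109, 132, 93, and 101 CPM in WT and at 44, 61.8, and 67.5 CPM in HNKO (-0.88 ± 0.15, adjusted p = 0.00103, edgeR), with no overlap. The called marker of the quiescent state that was higher, the muscle intermediate filament Des, was at 39.1 CPM in HNKO library 11 and 17.5 in library 13, which hold muscle transcripts, and its log2 fold change of 1.41 was 0.38 (adjusted p = 0.6) without them. Vim, the filament of mesenchymal cells, was higher by 0.82 ± 0.26 (adjusted p = 0.0435) and was not called without these libraries (0.72, adjusted p = 0.146). Of 19 growth factors and receptors of the TGF-beta group, Itgb6 and Pdgfa, a mitogen for stellate cells, were called higher, which is 10.5% of them. Of the exon bases of Pdgfa, 26.1% overlap another gene on the opposite strand.

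Macrophage markers were listed for recruited and for resident cells. Of 14 tested markers of recruited macrophages 10 were called higher (median 1.23), which is 71.4% against 4.56% of all tested genes. Of 9 markers of resident Kupffer cells 1 was called lower (11.1% against 3.27% of all tested genes) and 0 higher by edgeR. However, 8 had a positive log2 fold change (median 0.37), 4 were higher at an unadjusted p-value under 0.05, and DESeq2 called 1 higher. Gpnmb, a glycoprotein of lipid-laden macrophages, was at 0.368, 0.263, 0.287, 0.275, and 0.122 CPM in WT and at 1.02, 1.62, and 5.35 CPM in HNKO (3.30 ± 0.73, adjusted p = 0.00696). Cd14, the coreceptor for lipopolysaccharide, was at 1.84, 2.21, 2.73, 2.44, and 3.56 CPM in WT and at 4.16, 11, and 20.4 CPM in HNKO (2.08 ± 0.49, adjusted p = 0.00962). Cx3cr1, the fractalkine receptor of monocytes, was at 1.18, 1.2, 0.766, 0.884, and 1 CPM in WT and at 2.25, 2.55, and 8.7 CPM in HNKO (1.98 ± 0.47, adjusted p = 0.0102). All 3 genes were higher in every HNKO library than in any WT library, as was the integrin Itgax (1.5 ± 0.38, adjusted p = 0.0155), and Lgals3 was higher in 5 of 6 (1.34 ± 0.25, adjusted p = 0.00227). Cd163, the hemoglobin scavenger receptor of Kupffer cells, was at 25.7, 33.4, 34.1, 27.3, and 31.2 CPM in WT and at 15.1, 17.5, and 20.2 CPM in HNKO (-0.80 ± 0.20, adjusted p = 0.015), and the groups did not overlap. The difference between the classes was not tested, and without libraries 11 and 13 there were 4 calls among the 14 recruited markers.

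Of 19 tested chemokines 5 were called higher (median 0.86), which is 26.3% against 4.56% of all tested genes. The count was 2 without libraries 11 and 13 and 1 without libraries 11, 13, and 35. Cxcl1, which attracts neutrophils, was at 4.34, 3.49, 11.8, 5.03, and 1.76 CPM in WT and at 3.84, 23.9, and 80.4 CPM in HNKO (2.41 ± 0.48, adjusted p = 0.00369, edgeR), and 4 of 6 HNKO libraries were above WT. Cxcl14 was higher in all 6 (1.76 ± 0.40, adjusted p = 0.00809), and Cxcl2 was at 2.93 and 2.39 CPM in libraries 11 and 12 and at no more than 0.253 CPM in the other HNKO libraries (3.79 ± 0.97). Of 8 MHC class II genes 2 were called higher, which is 25% against 4.56% of all tested genes. Of the 8, 7 were at an unadjusted p-value under 0.05, all 8 were positive (median 0.85), and DESeq2 called 5. Without WT library 16 edgeR called none of the 8 (7 at an unadjusted p-value under 0.05), nor without libraries 11 and 13 (6). Of 19 lymphocyte and neutrophil markers 1 was called higher, the neutrophil alarmin S100a9 (1.59 ± 0.49, adjusted p = 0.0417), which at 5.26% is near the 4.56% of all tested genes. Of 20 interferon-stimulated genes 1 was higher and 2 lower, which is 15% against 7.82% of all tested genes called in either direction. The lower ones were Gbp3 (-0.80 ± 0.16, adjusted p = 0.00315) and Ifit1 (-0.74 ± 0.16, adjusted p = 0.00665), with 4 of 6 HNKO libraries below WT for each. Of 13 markers of sinusoidal endothelium 3 were called lower, among them Oit3 (-0.41 ± 0.09, adjusted p = 0.0063), and 1 higher, Vwf of larger vessels (0.60 ± 0.18, adjusted p = 0.038), which is 30.8% against 7.82%. None of the 13 was called by edgeR without libraries 11 and 13, with 1 higher and 4 lower at an unadjusted p-value under 0.05. The summed endothelial markers were at 898 to 1142 CPM in WT and 904 to 966 in HNKO.

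**Figure D4:**
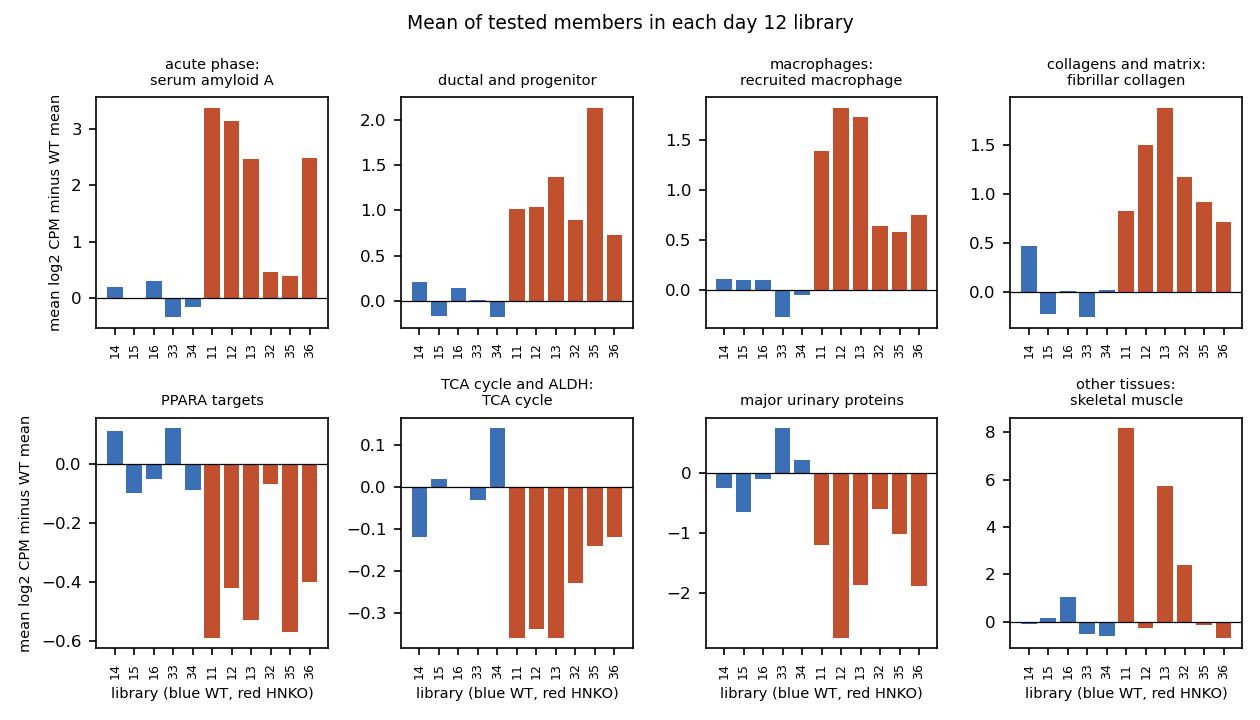
Mean log2 CPM of the tested members of 8 gene lists in each of the 5 WT (blue) and 6 HNKO (red) libraries, as the difference from the WT mean. The bars of the serum amyloid A genes are at 2.47 to 3.37 in HNKO libraries 11, 12, 13, and 36 and at 0.46 and 0.40 in libraries 32 and 35, and the skeletal muscle bars stand out in libraries 11 and 13.

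Among the genes lower in HNKO, Tymp, the thymidine phosphorylase, had the smallest p-value and was at 126, 153, 132, 135, and 117 CPM in WT and at 67.1, 75.2, and 91.3 CPM in HNKO (-0.80 ± 0.12, adjusted p = 0.000275, edgeR). Dnah11, an axonemal dynein, was at 2.9, 3.11, 4.07, 4.06, and 2.49 CPM in WT and at 0.831, 1.08, and 1.65 CPM in HNKO (-1.54 ± 0.25, adjusted p = 0.000425). Rfk, the riboflavin kinase that makes FMN, was at 66.5, 62.3, 63.8, 67.7, and 70.4 CPM in WT and at 44.9, 46.8, and 50.6 CPM in HNKO (-0.49 ± 0.08, adjusted p = 0.000911). These 3 genes did not overlap between groups, but 42.0% of the exon bases of Tymp overlap Sco2 and Ncaph2, so that its counts are uncertain. Hacd2, an enzyme of very long fatty acid synthesis (-0.43 ± 0.08), Elmod3 (-0.71 ± 0.13), Cyp39a1, an oxysterol hydroxylase (-0.89 ± 0.17), and Dnmbp (-0.53 ± 0.10) followed, all with adjusted p-values between 0.00224 and 0.00235. All 6 HNKO libraries were below WT for Hacd2, Cyp39a1, and Dnmbp, and 5 of 6 for Elmod3.

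Targets of PPARA, the nuclear receptor that drives fatty acid oxidation in hepatocytes, were called on the lower side only. Of 51 tested targets 12 were called lower, which is 23.5% against 3.27% of all tested genes, and the median log2 fold change was -0.35, with 48 of 51 below 0. Pex11a, which divides peroxisomes, was at 62.2, 63.9, 69.1, 49.7, and 72.6 CPM in WT and at 21.7, 32.3, and 45.7 CPM in HNKO (-0.94 ± 0.18, adjusted p = 0.00329, edgeR). Acaa1b, a peroxisomal thiolase, was at 460, 445, 498, 433, and 500 CPM in WT and at 174, 236, and 381 CPM in HNKO (-0.91 ± 0.21, adjusted p = 0.00803). The groups did not overlap for either, and 30.1% of the stretches of Acaa1b occur in its neighbor Acaa1a. Vnn1 (-1.25 ± 0.28, adjusted p = 0.00665) and Vnn3 (-0.59 ± 0.12, adjusted p = 0.00497), which release pantothenate, were also lower. By role, 5 of 13 peroxisomal genes, 3 of 21 genes of mitochondrial beta-oxidation and ketogenesis, 1 of 5 of microsomal omega-oxidation, and 3 of 12 regulators, carriers, or secreted proteins were called. The count was 6 without library 35 and 3 without libraries 11 and 13 (median -0.31), and without libraries 11, 13, and 35 it was 0 (edgeR, median -0.24). Over all libraries 24 of the 51 were lower at an unadjusted p-value under 0.05, and DESeq2 called 15.

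The list of TCA cycle enzymes and aldehyde dehydrogenases (ALDH), several of which use NAD, had 9 of 38 genes called lower, which is 23.7% against 3.27% of all tested genes, and 5 without WT library 16. Of 23 tested TCA cycle genes 6 were called lower (median -0.29), and of 15 ALDH genes 3 were (median -0.27). Dld, the NAD-linked subunit that the 2-oxoacid dehydrogenases share, was at 110, 137, 106, 124, and 124 CPM in WT and at 76.9, 88.4, and 92.3 CPM in HNKO (-0.47 ± 0.09, adjusted p = 0.00265, edgeR). Sdha, the flavoprotein of succinate dehydrogenase, was at 492, 550, 540, 518, and 590 CPM in WT and at 385, 407, and 442 CPM in HNKO (-0.39 ± 0.09, adjusted p = 0.00665). Aldh2, the mitochondrial acetaldehyde dehydrogenase, was at 1176, 1256, 1336, 1112, and 1379 CPM in WT and at 874, 947, and 1010 CPM in HNKO (-0.41 ± 0.10, adjusted p = 0.0126). None of these overlapped between groups, and the same held for Dlst (-0.30 ± 0.08, adjusted p = 0.0154) and Aldh9a1 (-0.38 ± 0.09, adjusted p = 0.00928). Without libraries 11 and 13, 2 of the 38 genes were called, both of the TCA cycle, while 13 were lower at an unadjusted p-value under 0.05. Aldh2 (-0.41, adjusted p = 0.0535), Dlst (-0.29, adjusted p = 0.0774), and Aldh9a1 (-0.31, adjusted p = 0.0779) lost their calls in that fit, and 1 of the 38 was called without libraries 11, 13, and 35.

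Subunits of the respiratory chain also had calls on the lower side only. Of 37 tested nuclear subunits of complex I 8 were called lower (median -0.23), which is 21.6% against 3.27% of all tested genes called lower. Of 40 subunits of complexes II to V 3 were called, all lower (median -0.18), which is 7.5% of them. Ndufa5 of complex I was at 40.2, 45.5, 84.3, 36.9, and 36.9 CPM in WT and at 27.1, 32, and 35.1 CPM in HNKO (-0.63 ± 0.16, adjusted p = 0.0156, edgeR). WT library 16 was again the highest, and without it the log2 fold change was -0.34 (adjusted p = 0.1145) and 1 of the 37 subunits was called. Without HNKO library 35 the count was 4, and for complexes II to V it was 2 without that library and 1 without WT library 16. When libraries 11 and 13 were left out, 1 subunit of complex I (median -0.14) and 1 of complexes II to V were called, and without libraries 11, 13, and 35 none was by edgeR, with 10 and 3 lower at an unadjusted p-value under 0.05. Of 8 tested mitochondrially encoded mRNAs 2 (25%) were called lower by edgeR and 3 by DESeq2, and 7 were lower at an unadjusted p-value under 0.05. None was called by edgeR without WT library 16 or without HNKO library 35, with 6 and 5 lower at an unadjusted p-value under 0.05. One of the called genes was mt-Nd6, the only one read from the light strand, at 471, 505, 621, 316, and 270 CPM in WT and at 131, 190, and 329 CPM in HNKO (-1.09 ± 0.30, adjusted p = 0.0217, and -0.98, adjusted p = 0.053, without library 35). Of 77 mitochondrial ribosomal proteins 2 were called lower, which is 2.6% against 3.27% of all tested genes. Without HNKO library 35 the count was 1, and without WT library 16 it was 0 by edgeR, with 11 lower at an unadjusted p-value under 0.05. With the clock score as a covariate, where 3938 genes were called in all, 20 mitochondrial ribosomal proteins were called lower and 1 higher. In that fit 17 subunits of complex I and 15 of complexes II to V were called lower. Of 45 mitochondrial carriers 2 were called higher and 1 lower, which is 6.67% against 7.82% of all tested genes. Among the higher ones, Slc25a4, abundant in muscle, was not called without libraries 11 and 13 (0.60, adjusted p = 0.345).

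Major urinary proteins, lipocalins that carry pheromones and are made in the liver under growth hormone and androgens, were among the genes with the largest decreases. Of 17 tested Mup genes 5 were called lower and 1 higher, which is 35.3% against 7.82% of all tested genes, with a median log2 fold change of -1.70. Mup17 was at 46.3, 24, 30.4, 78.6, and 106 CPM in WT and at 0.364, 2.93, and 7.05 CPM in HNKO (-4.03 ± 0.87, adjusted p = 0.00574, edgeR). Mup15 was at 25.7, 14, 32.2, 23.1, and 27.5 CPM in WT and at 0.208, 1.22, and 4.21 CPM in HNKO (-3.94 ± 0.92, adjusted p = 0.00902). For both genes the highest HNKO library was below the lowest WT library. Mup16 (-2.89 ± 0.70), Mup18 (-2.97 ± 0.74), and Mup2 (-1.97 ± 0.47) were lower too, and so were the pseudogenes Mup-ps12 (-3.46 ± 0.56) and Mup-ps14 (-3.64 ± 0.62), 2 of the 12 lower genes with the smallest p-values. Mup20, known as darcin, went the other way, from 6.8, 9.83, 12.7, 26.7, and 7.54 CPM in WT to 42.5, 58, and 211 CPM in HNKO (2.88 ± 0.68, adjusted p = 0.00983), again without overlap.

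These genes are near copies of each other, as the promoters of Mup15 and Mup17 show. Their 250 bases before the RefSeq start in GRCm38.p6 differ by an edit distance of 6, and capitals mark the 178 bases that both share without a break. Mup15 lies at chr4:61439705-61439954 and Mup17 at chr4:61595833-61596082, both on the minus strand.
Mup15: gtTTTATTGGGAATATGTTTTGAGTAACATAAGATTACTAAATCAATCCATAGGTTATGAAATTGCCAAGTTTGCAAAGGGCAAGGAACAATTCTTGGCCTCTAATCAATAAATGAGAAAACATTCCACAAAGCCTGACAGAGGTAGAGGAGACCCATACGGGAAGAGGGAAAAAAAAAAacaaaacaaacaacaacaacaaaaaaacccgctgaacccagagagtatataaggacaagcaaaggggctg
Mup17: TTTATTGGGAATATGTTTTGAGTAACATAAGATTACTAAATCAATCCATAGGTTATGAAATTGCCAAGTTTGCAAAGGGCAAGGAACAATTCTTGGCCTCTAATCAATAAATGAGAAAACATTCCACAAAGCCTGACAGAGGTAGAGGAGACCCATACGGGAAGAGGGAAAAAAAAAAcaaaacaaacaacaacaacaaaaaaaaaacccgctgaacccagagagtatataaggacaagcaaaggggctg
The motifs searched in the Saa promoters had 0 matches here as well. Of the stretches of 51 bases in the transcripts, 100% of Mup15, 91.5% of Mup16, 89.4% of Mup18, 78.2% of Mup2, 77.8% of Mup17, 50.1% of Mup20, 86.9% of Mup-ps14, and 75.8% of Mup-ps12 occur in other genes. The counts of single members and of the family are uncertain, since reads that match several genes can be split or left out. Without libraries 11 and 13, 3 Mup genes were called lower and 1 higher, and none was by edgeR without libraries 11, 13, and 35, with 7 lower and 1 higher at an unadjusted p-value under 0.05.

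Of 48 tested cytochrome P450 genes of families 1 to 3, which oxidize drugs and steroids, 5 were called lower and 1 higher (median -0.30), which is 12.5% against 7.82% of all tested genes. The count was 2 lower and 1 higher without libraries 11 and 13. Cyp2c39 was at 17.2, 20, 18.7, 16.9, and 18 CPM in WT and at 7.81, 10.1, and 12.3 CPM in HNKO (-0.83 ± 0.19, adjusted p = 0.00871, edgeR), with no overlap. Cyp2a4, a steroid hydroxylase that females express, was at 681, 1095, 1159, 216, and 1047 CPM in WT and at 159, 276, and 440 CPM in HNKO (-1.57 ± 0.38, adjusted p = 0.0109), and WT library 33 lay within the HNKO range. Cyp3a44 was lower (-1.73 ± 0.49, adjusted p = 0.0276), whereas Cyp3a11 of the same family was at 829, 782, 889, 863, and 562 CPM in WT and at 942, 1292, and 1547 CPM in HNKO (0.69 ± 0.20, adjusted p = 0.0316). Cyp2a4 shares 37.1% and Cyp3a44 25.6% of their stretches of 51 bases with relatives. Of 24 glutathione S-transferases 3 were called lower, among them Gsta3 (-0.51 ± 0.13, adjusted p = 0.0154), and 1 higher, which is 16.7% of them. None of the 24 was called by edgeR without libraries 11 and 13, with 4 higher and 8 lower at an unadjusted p-value under 0.05. Of 14 carboxylesterases Ces1d, a lipid droplet hydrolase, was called lower (-0.78 ± 0.20, adjusted p = 0.0142), which is 7.14% of them. It was not called without WT library 16 (-0.59, adjusted p = 0.0666) or without libraries 11 and 13 (-0.60, adjusted p = 0.112).

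Of 19 UDP-glucuronosyltransferases 0 were called by edgeR or DESeq2, with 4 lower at an unadjusted p-value under 0.05. With the clock score as a covariate, where 3938 genes were called in all, edgeR called 4 of the 19 and 4 sulfotransferases lower. Sulfotransferases had a median of -0.98 over 18 tested members and 0 calls by edgeR, with 9 lower at an unadjusted p-value under 0.05 and 1 called by DESeq2. Sult2a1, which sulfates bile acids and steroids, was at 82.4, 5.74, 39.5, 51.2, and 45.7 CPM in WT and at 1.49, 4.89, and 24.2 CPM in HNKO (-2.48 ± 0.88, adjusted p = 0.0726). In WT library 15 it was as low as in the HNKO libraries. Sult2a3 had a log2 fold change of -3.01 ± 0.98 (adjusted p = 0.0512).

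Bile acid genes gave 2 calls of 28, both lower, which is 7.14% against 7.82% of all tested genes. Neither was called by edgeR without libraries 11 and 13, with 4 of the list lower at an unadjusted p-value under 0.05. Akr1d1, the 5-beta reductase of bile acid synthesis, was at 264, 282, 272, 366, and 301 CPM in WT and at 163, 184, and 216 CPM in HNKO (-0.67 ± 0.18, adjusted p = 0.0192, edgeR), without overlap, and Cyp2c70, which makes muricholic acids, was lower too (-0.60 ± 0.18, adjusted p = 0.0395). Cyp7a1, the rate-limiting enzyme of bile acid synthesis, was at 62.5, 54.1, 350, 57, and 68 CPM in WT and at 21.6, 122, and 224 CPM in HNKO. It was not called (0.01 ± 0.64, adjusted p = 0.994), and its value in WT library 16 was above all HNKO libraries while the other WT libraries were below 5 of the 6. The difference of 0.18 in mean log2 CPM had p = 0.823 in the exact permutation test.

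Markers of hepatocyte identity and lobule position gave 1 call. Of 22 hepatocyte markers 1, the retinol carrier Rbp4, was called lower (-0.43 ± 0.13, adjusted p = 0.0391, edgeR), which is 4.55% against 3.27% of all tested genes, and the median was -0.16. None was called by edgeR without WT library 16, without HNKO library 35, or without libraries 11 and 13, with 2, 3, and 2 lower at an unadjusted p-value under 0.05. Of 26 zonation markers 0 were called by edgeR or DESeq2, with 3 at an unadjusted p-value under 0.05 and a median of -0.19. Glul, the glutamine synthetase of hepatocytes around the central vein, was at 1858, 1652, 1936, 1207, and 1409 CPM in WT and at 1211, 1412, and 1586 CPM in HNKO (-0.19 ± 0.15, adjusted p = 0.461, and p = 0.217 in the exact permutation test of a difference of -0.18), and the groups overlapped. Of 27 apolipoproteins 0 were called by edgeR, 5 had an unadjusted p-value under 0.05, and DESeq2 called 1. Of 30 lipogenic genes 2 were called higher, among them Scd2, a desaturase low in normal hepatocytes, at 12.4, 8.97, 9.9, 10.3, and 10.9 CPM in WT and at 13.1, 22.2, and 27.2 CPM in HNKO (0.97 ± 0.21, adjusted p = 0.0067), while the median of the list was -0.45. Of 31 genes of cholesterol synthesis and uptake 1 was called higher, and of 43 genes of glucose and amino acid metabolism 2 were. The shares called higher in these lists were 6.67%, 3.23%, and 4.65% against 4.56% of all tested genes. With the clock score as a covariate, where 3938 genes were called in all, edgeR called 10 cholesterol genes higher and 2 lower (median 0.38). In that fit the lipogenic genes had 2 higher and 2 lower (median -0.11) and the glucose and amino acid genes 3 higher and 5 lower. Zonation markers then had 1 higher and 3 lower, and apolipoproteins 1 higher and 6 lower. When libraries 11 and 13 were left out, edgeR called 1 lipogenic gene and none of the glucose and amino acid genes, of which 2 were higher and 3 lower at an unadjusted p-value under 0.05.

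Of 20 p53 targets 4 were called higher, which is 20% against 4.56% of all tested genes, and 2 were without libraries 11 and 13. Tnfrsf10b, a TRAIL death receptor, was at 0.772, 0.375, 0.191, 0.518, and 0.608 CPM in WT and at 0.826, 1.7, and 2.39 CPM in HNKO (1.74 ± 0.44, adjusted p = 0.0154, edgeR), and Eda2r, a further death receptor, was higher by 1.41 ± 0.37 (adjusted p = 0.0179). Neither overlapped between groups. Pmaip1 (0.86 ± 0.26) and Phlda3 (1.33 ± 0.41) were the others, and the median of the 20 was 0.09. Of 23 ATF4 targets of the integrated stress response only Slc7a11 was called (median 0.03), which at 4.35% is near the share of all tested genes called higher. Of 35 genes of the oxidative stress response 3 were called higher and 2 lower (14.3% against 7.82% of all tested genes), the latter being Sod1 (-0.44 ± 0.12, adjusted p = 0.0217) and mitochondrial Txn2 (-0.56 ± 0.15, adjusted p = 0.0193). Neither was called without library 35 (Sod1 adjusted p = 0.0584, Txn2 adjusted p = 0.0517), where 1 gene of the list was called higher, and none was called lower without WT library 16 (edgeR, 6 at an unadjusted p-value under 0.05). Of 16 chaperones 1 was called lower, Hsp90b1 of the ER (-0.41 ± 0.12, adjusted p = 0.0366), which is 6.25% of them. It was not called without WT library 16 (-0.34, adjusted p = 0.111) or without HNKO library 35 (-0.37, adjusted p = 0.0866).

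Of 34 cell cycle genes 2 were called higher, which is 5.88% against 4.56% of all tested genes. Mcm6, a subunit of the replicative helicase, was at 5.99, 5.67, 6.27, 5.64, and 7.02 CPM in WT and at 8.04, 12.3, and 20.3 CPM in HNKO (1.14 ± 0.27, adjusted p = 0.00991, edgeR), without overlap, and Mcm5 of the same helicase was higher by 1.17 ± 0.33 (adjusted p = 0.028). The 15 mitotic genes had a median of 1.11 and 0 calls by edgeR, with 9 higher at an unadjusted p-value under 0.05 and 2 called by DESeq2. With the clock score as a covariate, where 3938 genes were called in all, edgeR called 11 of the 34 cell cycle genes higher, 5 of them mitotic. Of 25 genes of the Notch and Hippo pathways 4 (16%) were called higher, 2 without libraries 11 and 13, among them the YAP target Ankrd1 (2.35 ± 0.54, adjusted p = 0.00841), whose groups did not overlap. Tnfrsf12a, the receptor Fn14 of the cytokine TWEAK, was at 2.24, 2.21, 1.82, 2.65, and 3.68 CPM in WT and at 3.73, 7.15, and 14.8 CPM in HNKO. It fell just short of the threshold in edgeR (1.55 ± 0.50, adjusted p = 0.0505) and passed it without HNKO library 35 (1.70, adjusted p = 0.04175), all 6 HNKO libraries were above WT, and the difference of 1.43 in mean log2 CPM had p = 0.00866 in the exact permutation test (0.026 adjusted over the 6 values).

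The remaining lists gave 1 to 6 calls each, and their shares stand against 4.56% of all tested genes called higher, 3.27% lower, and 7.82% in all. Lists with 1 call are not read as a change of the list. Annexins and S100 proteins had 6 of 20 called higher (30%), among them Anxa2 (1.21 ± 0.32, adjusted p = 0.018, edgeR), without overlap. Immediate early genes had 3 of 14 called higher (21.4%), tubulin and actin genes 3 of 23 (13%), and metal handling genes 1 of 12 higher and 1 lower (16.7%). Without libraries 11 and 13 edgeR called 3 of the annexins and S100 proteins, 1 of the tubulin and actin genes, and none of the immediate early genes (4 higher at an unadjusted p-value under 0.05) or metal handling genes (1 higher, 2 lower). When library 35 was left out too, it called none of the annexins and S100 proteins (8 higher at an unadjusted p-value under 0.05). Of 8 tested fetal liver genes 2 (25%) were called higher, Tff3 (2.98 ± 0.88) and Igdcc4 (2.74 ± 0.83), and Igdcc4 was at 9.93 CPM in library 35 with a log2 fold change of 1.58 (adjusted p = 0.211) without it. Tff3 was not called without library 35 either (2.43, adjusted p = 0.0876), which left 0 calls by edgeR and 6 of the 8 higher at an unadjusted p-value under 0.05. Of 16 genes of the growth hormone axis 1 (6.25%), Igfbp2, was called lower (-1.01 ± 0.28, adjusted p = 0.0264). It was not called without WT library 16 (-0.72, adjusted p = 0.118) or without libraries 11 and 13 (-0.91, adjusted p = 0.12). Of 18 clock genes 1 (5.56%), Cry1, was called lower (-0.66 ± 0.21, adjusted p = 0.0458). The clock list depends on WT library 16, without which Cry1 was not called (-0.55, adjusted p = 0.122), 5 clock genes were called higher and 1 lower, and the median moved from -0.16 to 0.57. Of 79 cytosolic ribosomal proteins only the muscle paralog Rpl3l was called (1.27%), higher by 3.38, which was 1.63 (adjusted p = 0.326) without libraries 11 and 13. Among serpins 5 of 34 were called higher (14.7%), 1 without libraries 11 and 13, and among cadherins 1 of 13 (7.69%), Cdh6. The list of markers of other tissues had 4 calls of 14 (28.6%), which were Ckm (7.92), Acta1 (8.38), Mylpf (3.12), and Ctrb1. None of the 4 was called without libraries 11 and 13 by edgeR, and Ctrb1 was then below the filter on low counts.

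Transporters were the largest family examined, with 25 of 265 solute carriers called higher and 5 lower, which is 11.3% against 7.82% of all tested genes, and a median of 0.03. Without libraries 11 and 13, 18 were called higher and 1 lower, and without libraries 11, 13, and 35 none was called by edgeR, with 34 higher and 13 lower at an unadjusted p-value under 0.05. Slc10a2, the sodium-dependent bile acid transporter of bile ducts and ileum, was at 4.04, 11.1, 4.02, 3.9, and 6.36 CPM in WT and at 8.9, 22.6, and 29.1 CPM in HNKO (1.88 ± 0.40, adjusted p = 0.00562, edgeR). Slc13a5, the citrate importer, was at 0.662, 0.675, 2.2, 1.22, and 0.365 CPM in WT and at 1.66, 5.75, and 8.32 CPM in HNKO (2.40 ± 0.51, adjusted p = 0.00537). For both, 5 of 6 HNKO libraries were above all WT libraries. Slc5a1, a sodium-glucose cotransporter (1.16 ± 0.23), Slc6a8, the creatine importer (1.15 ± 0.24), and Slc37a1 (1.29 ± 0.25) were the others among the 5 with the smallest p-values.

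The genes called at day 12 mostly had the same sign at the other days. Of the 1588 called genes, 91.4% had the same sign at day 3, 96.1% at day 6, and 96.4% at day 21, and 665 were called at day 12 and at no other day. Called the same way were 391 of them at day 3, 813 at day 6, and 331 at day 21, which have other group sizes. These genes were chosen by their day 12 call, and the same shares over all tested genes are not given here. Across all tested genes, Pearson r between the log2 fold changes of day 12 and those of days 3, 6, and 21 was 0.557, 0.609, and 0.673. No gene passed the test of a difference between the effect at day 12 and the mean effect at days 3, 6, and 21 (0 of 20297 by edgeR, 0%, with 1117 at an unadjusted p-value under 0.05 and 1 called by DESeq2), nor the test against day 6 (0 of 20297, 0%, 1020, and 1 by DESeq2). The gene that DESeq2 called in both was Ctrb1, which HNKO library 35 holds at 12.2 CPM and which is below the filter without it. In value, the serum amyloid A genes had median log2 fold changes of 1.32, 4.89, 2.92, and 0.98 at days 3, 6, 12, and 21, and the ductal markers 1.34, 1.6, 1.54, and 1.37. The major urinary proteins had -0.72, 0.10, -1.70, and -0.51, and Mup17 had 0.10 at day 6 against -4.03 at day 12. Since none of these genes passed the test of the difference, they are not shown to differ between days.

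**Figure D5:**
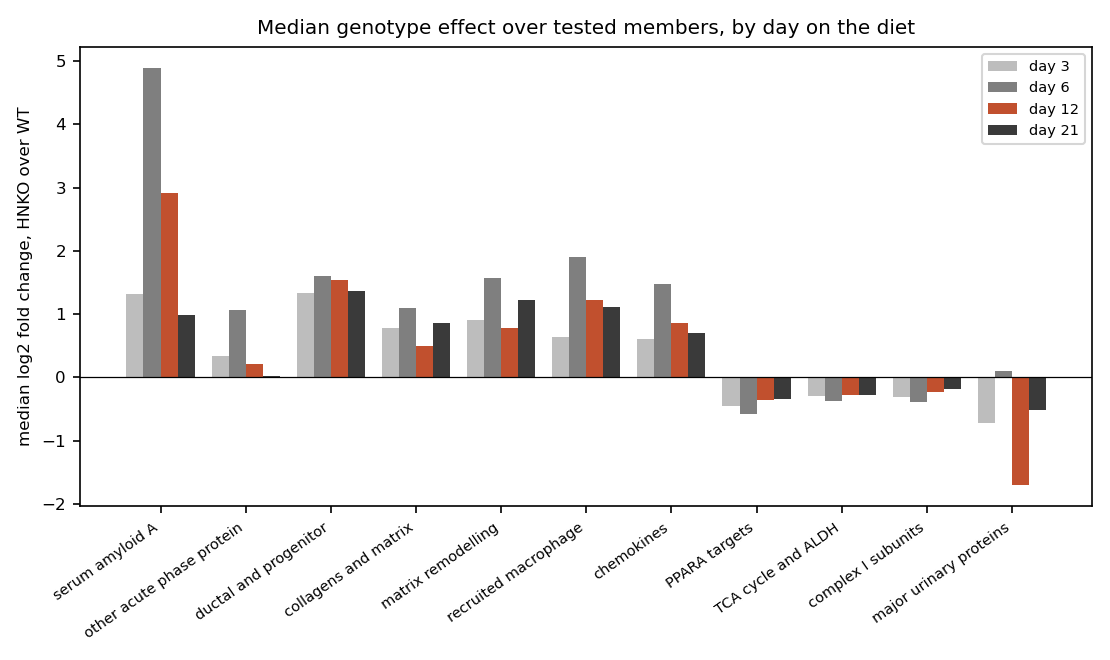
Median log2 fold change of HNKO over WT across the tested members of 11 gene lists at days 3, 6, 12, and 21 of feeding, with day 12 in red and no error bars. Serum amyloid A genes are at 4.89 at day 6 and 2.92 at day 12, ductal markers stay between 1.34 and 1.6, and major urinary proteins are at -1.70 at day 12.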

How the data were processed

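Total RNA of whole liver was sequenced after rRNA depletion as stranded paired reads of 51 bases. Per the study's methods and the labels, the authors aligned reads with STAR 2.7.2b to GRCm38, counted them per gene of GENCODE with featureCounts 1.6.4, and tested them with edgeR 3.26.0. Use of strand in the counting is not given in the sources used here. The deposited values are raw counts per gene, and 0 columns belonged to no sample.

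Counts of the 38 libraries that passed the study's quality control (2 HNKO libraries of day 21 were left out) were fitted in 1 model with a mean per genotype and day, so that all days share the estimate of spread. The tools were edgeR 4.0.16 in R 4.3.3 (TMM scaling, filterByExpr with min.count 10, min.total.count 15, and min.prop 0.7, quasi-likelihood F test) and DESeq2 1.42.0 as an alternative. P-values were adjusted by Benjamini-Hochberg over all 20297 tested genes with a threshold of 0.05. Log2 CPM used a prior count of 2. Single values were compared by exact permutation tests of library labels (two-sided). P-values measure the spread between libraries. On simulated counts with 200 genes changed by a log2 fold change of 2, the comparison of genotypes at day 12 recovered 100% of them among 19838 tested genes with 8 false calls. The changed genes were drawn from well-covered genes, and no outlying libraries were simulated. This recovery therefore does not apply to smaller changes or to genes with few counts. Positions, overlaps, and shared sequence come from GENCODE annotation of the same build in an earlier release, and promoters from RefSeq.

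The genes and lists were chosen with earlier results of these data known. Named were Nampt, 12 genes in each direction by smallest p-value, the 8 higher and 8 lower called genes of largest fold change without overlap, up to 6 called members per list (or the 2 of smallest p-value where none was called), and Alb, Glul, Cyp7a1, and Tnfrsf12a. Hamp, Saa3, Saa4, C8b, C8g, Dbp, Arntl, and Nup50 fall outside this rule and were named after their values were seen. Some genes that the rule would name are not reported here. The fits without HNKO libraries 11 and 13, and without 11, 13, and 35, were added after seeing the data.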

Additional observations from a re-analysis of the deposited data

Results flagged for a closer look

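In each group of libraries, the gap between the highest or lowest library and its nearest neighbor on the log2 CPM scale was divided by the range of the group and set against Dixon's 95% critical value for groups of 5 WT and 6 HNKO libraries. Over 129 genes and 258 groups, 23 libraries exceeded it, and chance flags about 1 group in 20. WT library 16 accounted for 7 of them and HNKO library 35 for 5. These counts include 4 genes, among them Dbp, Arntl, and Hamp, that were added because of their values in these libraries. Without the 4, there were 20 outlying libraries in 250 groups, 5 of them WT library 16 and 4 HNKO library 35.

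WT library 16 was highest for Nampt (gap over range 0.8302), Tifa (0.7456), Ndufa5 (0.7448), Cyp7a1 (0.8775), and the clock gene Dbp (0.7253, 183 CPM against 2.89 to 9.12 in the other WT libraries), and lowest for Cyp2c29 (0.7976) and the clock gene Arntl (0.7712, 2.35 CPM). Its clock score of 3.45 is given in the report, and the part of sampling time in these values was not tested. HNKO library 35 was highest for Cd24a (0.7293), Krt19 (0.719), and Igdcc4 (0.6619) and lowest for Phlda3 (0.6321) and Hamp (0.8707, 6.31 CPM).

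The other outlying values were spread over several libraries. WT library 14 was highest for Sprr1a (1.0, the only WT library with counts) and Vim (0.8182) and lowest for Mup2 (0.7562) and Nadk2 (0.734). WT library 15 was lowest for Cxcl2 (0.7242, 0 CPM) and Mup18 (0.7564), and WT library 34 for Cyp3a11 (0.7202). Among HNKO, library 36 was lowest for Hacd2 (0.7434) and highest for Gsta3 (0.6907), and library 32 was lowest for Pmaip1 (0.6984) and Slc10a2 (0.6434).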

How the results depend on the processing

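The count of called genes (1588) depended on the fit more than the directions did. It was 1180 (695 higher, 485 lower) for genes with at least 10 counts in every library, 1086 (727, 359) without a filter, 624 (368, 256) with all 40 libraries, 867 (546, 321) with day 12 libraries only, 3938 (2029, 1909) with the clock score as a covariate, 564 (404, 160) in the first label series alone, and 0 in the second by edgeR, where 1707 genes had an unadjusted p-value under 0.05. It was 603 (378, 225) without HNKO libraries 11 and 13 and 97 (68, 29) without 11, 13, and 35, fits chosen after seeing the data. With the label series as a covariate it was 2000 (1076, 924), of which 53.8% were higher against 58.25% in the fit reported. The other scalings and tools gave 1527 to 2053. The causes were not tested. Leaving out 1 library gave 852 to 1750 genes in all, 513 to 1067 higher, and 278 to 683 lower, with 852 without WT library 15, 929 without HNKO library 13, and 990 without WT library 33. The lower count was also reduced to 430 without HNKO library 12 and 433 without HNKO library 35. Of called genes that could be tested, 99.86% to 100% kept their sign in these fits.

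For the difference between day 12 and the other days, or day 6, DESeq2 called 1 and 1 gene and the clock covariate 1 (Nup50) against the mean of the other days. Glul reversed to 0.01 in the second series. Cyp7a1 reversed to -0.24 in the first series, -0.52 with the clock covariate, and -0.02 without libraries 11 and 13, and ranged from -0.27 to 0.98 when 1 library was left out. As differences of mean log2 CPM, Cyp7a1 ranged from -0.07 to 0.68 and Glul from -0.28 to -0.11. Over named genes and fits, 2530 values kept direction and side of the threshold, 520 fell short of it, 9 newly passed it, and 11 reversed. No paired analysis was possible because the groups share no replicate numbers. Depth limits genes near 0 counts in WT, such as Sprr1a.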
